A study of Mus musculus with 2 samples.

Results

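The Mir322 and Mir503 cluster is a group of miRNA hairpins on the X chromosome of the mouse. Its 5 members, Mir322, Mir503, Mir351, Mir542 and Mir450b, were taken by their gene names in GENCODE M21 from the 2202 miRNA genes of the tables, and all 5 passed the minimum of 10 reads in both libraries. The series holds 1 group of 2 microRNA-seq libraries, made from adrenal gland tissue of females of the strain B6CASTF1/J at 4 days of age. B6CASTF1/J mice are first-generation hybrids of C57BL/6J and CAST/EiJ, and the counts do not tell reads of the parental alleles apart. The labels number the libraries as biological replicates 1 and 2, and their descriptions name separate females, although both list the same donor identifier. That the spread between the libraries is one between animals therefore rests on those descriptions. There is no treated, mutant or other control group. What can be asked is how many reads each member had and how closely the libraries matched. The tissue is a mixture of cortical, medullary, vascular and capsular cells, and in such bulk samples fewer cells of a type and less RNA per cell cannot be told apart.

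A miRNA is cut from a hairpin precursor as a short RNA of which bases 2 to 8, the seed, select target mRNAs by pairing. Mir322 is the mouse counterpart of human MIR424. Together with miR-15 and miR-16, which carry the same seed, and with miR-503, whose seed is near-identical, it is known for lowering regulators of cell division such as Cdc25a and D-type cyclins, and the pair is known from differentiating muscle cells. miR-351 carries the seed of miR-125, a miRNA known from differentiation and survival pathways, and miR-542-3p is known in human cells as a repressor of survivin, an inhibitor of apoptosis.

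The mature sequences show which members can share targets, and which can be confused in mapping. All 5 members had mature sequences in RefSeq (build GRCm38.p6, the same assembly as mm10), and they are given 5′ to 3′ with the seed in capitals. The first 4 lines hold miR-322-5p (chrX:53054306-53054327, minus strand), miR-503-5p (chrX:53054027-53054049, minus strand) and 2 relatives from other chromosomes.
miR-322-5p: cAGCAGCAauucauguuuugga
miR-503-5p: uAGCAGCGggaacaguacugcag
miR-16-5p: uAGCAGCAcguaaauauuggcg
miR-15a-5p: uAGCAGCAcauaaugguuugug
miR-322-5p has the same bases as miR-16-5p at positions 2 to 8, whereas miR-503-5p is identical to both at positions 2 to 7 only. After the seed the letters part, and the longest run that miR-322-5p has in common with miR-16-5p is 7 bases.

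The second set pairs miR-351-5p (chrX:53053315-53053338, minus strand) with miR-125a-5p.
miR-351-5p: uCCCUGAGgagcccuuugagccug
miR-125a-5p: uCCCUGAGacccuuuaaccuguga
The third set holds miR-542-3p (chrX:53049415-53049436, minus strand), whose seed no other mature miRNA of the RefSeq table has, both arms of the Mir450b hairpin (chrX:53048044-53048065 and chrX:53048008-53048029, minus strand), and the closest relatives of those arms.
miR-542-3p: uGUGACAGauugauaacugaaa
miR-450b-5p: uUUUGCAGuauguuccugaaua
miR-450a-5p: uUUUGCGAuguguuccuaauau
miR-450b-3p: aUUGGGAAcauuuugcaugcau
miR-450a-1-3p: aUUGGGAAcauuuugcauaaau
miR-450b-3p and miR-450a-1-3p are identical over their first 18 bases, whereas miR-450b-5p and miR-450a-5p differ within the seed. Of the 5 members, Mir450b alone thus holds a run of at least 18 bases that occurs in another miRNA hairpin, and its count is uncertain to that extent. The other 4 members have at most 13 bases in a row in common with any other hairpin.

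Each count covers a whole hairpin and sums both of its arms. The hairpin of Mir322 (chrX:53054255-53054349, minus strand) is shown with both mature miRNAs in capitals, followed by that of its neighbour Mir503 (chrX:53053984-53054054, minus strand).
Mir322: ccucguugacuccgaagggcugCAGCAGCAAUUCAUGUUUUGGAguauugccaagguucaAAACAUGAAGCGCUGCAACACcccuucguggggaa
Mir503: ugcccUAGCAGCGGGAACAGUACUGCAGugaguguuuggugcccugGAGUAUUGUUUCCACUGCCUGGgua

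In the direction of transcription the order is Mir322, Mir503, Mir351, Mir542, Mir450-2, Mir450-1 and Mir450b, all on the minus strand within 6353 bases (mm10). Mir503 begins 200 bases after Mir322 ends, Mir351 a further 630 bases on, and Mir542 follows after 3767 bases. The annotated hairpin of Mir351 (ENSMUSG00000065503.1) is at chrX:53053255-53053353, that of Mir542 (ENSMUSG00000076140.1) at chrX:53049403-53049487 and that of Mir450b (ENSMUSG00000076050.1) at chrX:53047997-53048078. Mir322 and Mir503, placed above, are ENSMUSG00000065418.1 and ENSMUSG00000076122.1 in the tables. None of the hairpins overlaps another gene annotated in GENCODE M21. The noncoding transcript gene C430049B03Rik ends 696 bases before Mir322, and the lincRNA gene Gm28730 lies between Mir351 and Mir542.

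**Figure D1:**
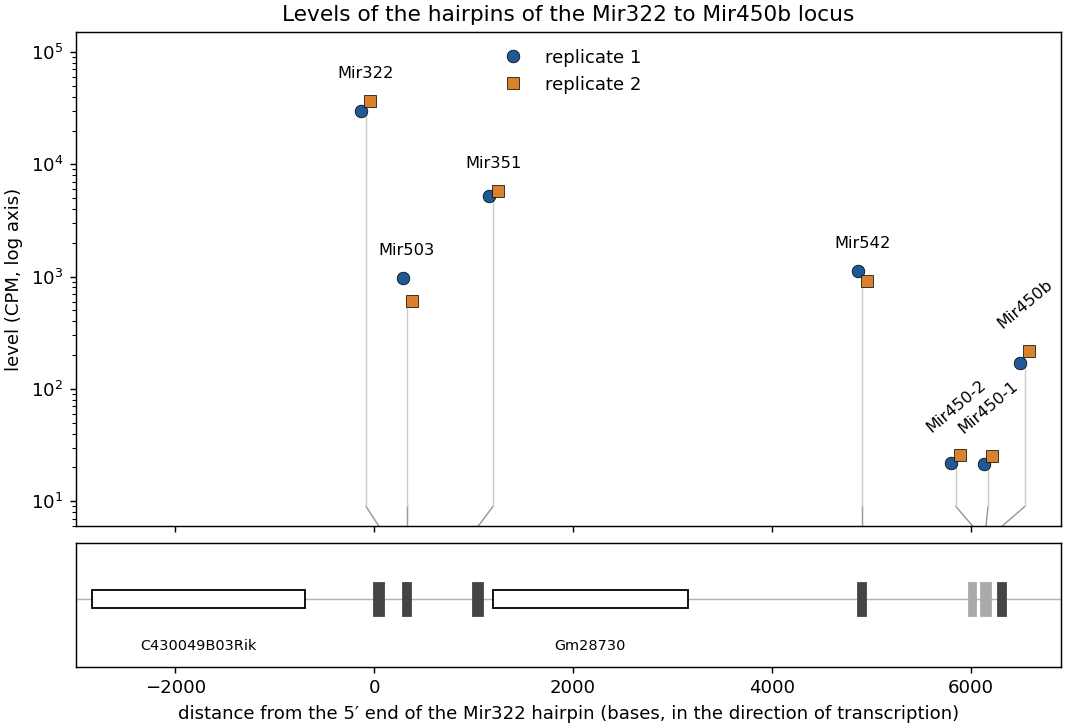
Level of each hairpin of the locus in CPM (log axis) for both libraries, above a map of the locus in bases from the 5′ end of the Mir322 hairpin. Filled boxes are members, grey boxes Mir450-2 and Mir450-1, open boxes longer noncoding genes, and points are set beside each other with a line to their hairpin. Mir322 stands at 29731 CPM in replicate 1, against 36935 CPM in replicate 2, and Mir450b at 169 CPM, against 216 CPM.

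The cluster took a sizeable share of the miRNA reads of the neonatal adrenal, and most of its reads came from Mir322. The 5 members had 184662 of 4960537 miRNA reads in replicate 1 and 200222 of 4506482 in replicate 2. The share was thus 3.72% (95% Wilson interval 3.71 to 3.74) in replicate 1. It was 4.44% (4.42 to 4.46) in replicate 2, with a mean of 4.08% ± 0.51 (SD, n = 2). Intervals here and in the following cover counting error only and hold no variation between the libraries. Amplified reads that carry no molecular identifier cannot be taken as separate molecules, so the intervals may be too narrow even for that error. CPM is the count of a gene divided by all miRNA reads of its library and multiplied by 1000000.

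Mir322, the member with the miR-15/16 seed, had 147484 reads (29731 CPM) in replicate 1 and 166447 reads (36935 CPM) in replicate 2. With a mean of 33333 CPM ± 5094 (SD, n = 2) it ranked 7 among the 2202 genes, and its rank was 7 in each library. Within the cluster it made up 79.9% of the reads of replicate 1 (79.7 to 80.0, Wilson) and 83.1% of those of replicate 2 (83.0 to 83.3).

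Mir351, the member with the miR-125 seed, was next. It had 25973 reads (5236 CPM) in replicate 1 and 25965 reads (5762 CPM) in replicate 2, a mean of 5499 CPM ± 372 (SD, n = 2). Its share of the cluster's reads was 14.1% in replicate 1 and 13.0% in replicate 2. It ranked 36 by mean CPM.

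Mir542, the source of miR-542-3p, had 5541 reads (1117 CPM) in replicate 1 and 4109 reads (912 CPM) in replicate 2, a mean of 1014 CPM ± 145 (SD, n = 2). Mir503, whose miR-503-5p has a seed that no other mature miRNA of the RefSeq table holds over all 7 bases, had 4824 reads (972 CPM) in replicate 1 and 2727 reads (605 CPM) in replicate 2. Its mean was 789 CPM ± 260 (SD, n = 2), the widest relative spread of the 5 members. Both therefore took at most 3.00% of the cluster's reads in either library.

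Mir450b, at the 3′ end of the locus, had 840 reads (169 CPM) in replicate 1 and 974 reads (216 CPM) in replicate 2, a mean of 193 CPM ± 33.1 (SD, n = 2). Mir450-2 and Mir450-1 lie between Mir542 and Mir450b and had 109 and 107 reads in replicate 1 and 117 and 114 in replicate 2. Their miR-450a-5p is the same letter for letter in both hairpins. A read that matches more than 1 place in the genome enters no gene's count, so these counts are no measure of miR-450a-5p.

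By mean CPM the order was Mir322, Mir351, Mir542, Mir503 and Mir450b. Mir322 exceeded Mir351 by 6.06 times and Mir351 exceeded Mir542 by 5.42 times, with no overlap between the ranges of the libraries. Mir542 and Mir503 differed 1.29-fold in mean CPM. Within a library Mir542 exceeded Mir503 by 1.15 times in replicate 1 and by 1.51 times in replicate 2, although the ranges of the genes overlapped when taken across libraries. Mir503 exceeded Mir450b by 4.09 times, again without overlap. A small RNA read spans a mature miRNA rather than a part of a transcript, so CPM was not divided by length. Per base of the annotated hairpin (71 to 99 bases for the members) the order was the same, at 350.9, 55.5, 11.9, 11.1 and 2.35 CPM per base.

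Neighbours that lie close together in the locus could thus be far apart in read count. Mir503 begins 200 bases after Mir322. In each library its CPM was below that of Mir322 and below that of Mir351, which comes after it. From the highest to the lowest of the 5 members the means spanned 173-fold. Reads of different miRNAs were not calibrated to amounts, so all such ratios between members are ratios of reads.

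Between the libraries the members differed by at most 1.55-fold, and in both directions. Log2 ratios are of reads scaled by TMM factors (library totals adjusted for composition), replicate 1 over replicate 2. Each gene's split of reads was tested against the scaled library sizes (binomial test, exact and two-sided), with Benjamini-Hochberg adjustment over the 377 genes with at least 10 reads in both libraries. This test compares these 2 libraries and takes counting error as the only error.

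Mir503 and Mir542 were higher in replicate 1. Mir503 had a log2 ratio of 0.63 (95% exact interval 0.57 to 0.70, adjusted p = 1.00e-76, exact binomial test), which is 1.55-fold. Mir542 had a log2 ratio of 0.24 (0.18 to 0.30, adjusted p = 9.21e-16, exact binomial test). These 2 of 5 members stand against 35.3% of all 377 genes called higher in replicate 1.

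Mir322, Mir351 and Mir450b were lower in replicate 1 than in replicate 2. Mir322 had a log2 ratio of -0.36 (95% exact interval -0.37 to -0.35), a 1.29-fold difference. Mir351 had -0.19 (-0.21 to -0.16, adjusted p = 6.25e-50, exact binomial test), and Mir450b had -0.40 (-0.54 to -0.27, adjusted p = 6.66e-09, exact binomial test). These 3 of 5 members stand against 31.8% of all genes called higher in replicate 2. With 67.1% of all genes called in one direction or the other, the calls of the members are common at this depth. The neighbours Mir450-1 and Mir450-2 had log2 ratios of -0.28 (-0.68 to 0.11) and -0.29 (-0.68 to 0.10), and neither passed the test at counts near 100. The summed reads of the 5 members had a log2 ratio of -0.31 (-0.32 to -0.30), which follows Mir322.

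The differences of the members lay within the spread of all genes between the pair of libraries. The median size of the log2 ratio was 0.36 for the 5 members and 0.42 for the 377 genes, and the SD of the log2 ratio over all genes was 0.97. Mir503, the member that differed most, had a larger difference than 65.8% of the genes, and Mir351, which differed least, a larger one than 24.1%. edgeR's exact test was also run, taking the libraries as 2 groups of 1 at the common dispersion of the pair (biological coefficient of variation 0.437). This dispersion comes from the same 2 libraries, so the difference tested is itself taken as noise, and a lack of calls says nothing about the members. It called 0 of the 5 members, with unadjusted exact p from 0.490 (Mir503) to 0.836 (Mir351). It called 1.86% of the genes, and 6.63% had an unadjusted p under 0.05.

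**Figure D2:**
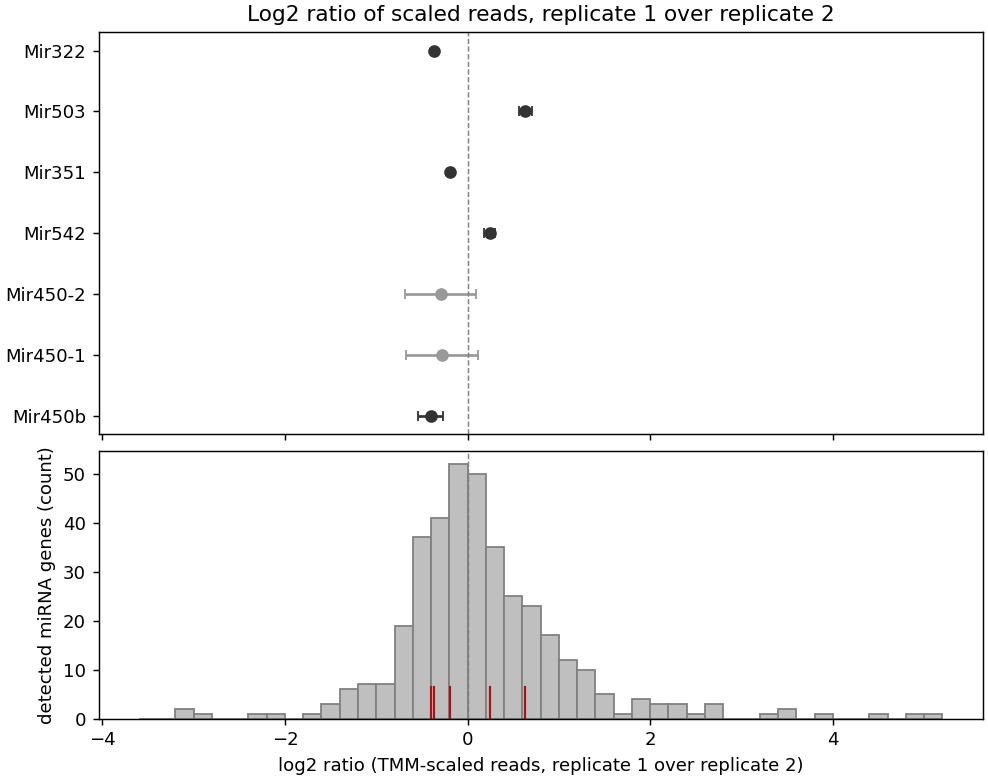
Upper panel, log2 ratio of TMM-scaled reads, replicate 1 over replicate 2, for each hairpin of the locus with its 95% exact interval (members dark, Mir450-2 and Mir450-1 grey). Lower panel, histogram of the same ratio for 377 detected genes, with short red lines at the 5 members, which lie between -0.40 and 0.63.

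The ratio of a member to another within a library does not depend on scaling, and it shows which members kept their proportions. For Mir322 over Mir503 it was 30.6 in replicate 1 (95% exact interval 29.7 to 31.5) and 61.0 in replicate 2 (58.8 to 63.4), a 2.00-fold difference between the libraries. For Mir503 over Mir450b it was 5.74 in replicate 1 (5.34 to 6.19) and 2.80 in replicate 2 (2.60 to 3.02). The proportion of Mir503 to the first and to the last hairpin of the locus thus differed between the libraries by about the same factor.

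Mir322 and Mir450b, at opposite ends of the locus, were in the same proportion within counting error. Their ratio was 176 in replicate 1 (164 to 188) and 171 in replicate 2 (160 to 182). This was the one pair of the 10 whose intervals overlapped. Mir322 over Mir351 was 5.68 in replicate 1 and 6.41 in replicate 2, a difference of 1.13-fold. Mir322 over Mir542 was 26.6 in replicate 1 and 40.5 in replicate 2, a difference of 1.52-fold. Among Mir322, Mir351 and Mir450b the proportions differed between the libraries by at most 1.16-fold. Mir503 over Mir542 was 0.871 in replicate 1 (0.837 to 0.905) and 0.664 in replicate 2 (0.632 to 0.697), a 1.31-fold difference, so these members did not keep their proportion either.

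Among reads counted for genes with the miR-15/16 seed, most were of Mir322 in both libraries, but to a different extent. These counts sum both arms of each hairpin and hold no reads that match several places, so they do not measure the seed itself. The RefSeq table gives this seed to Mir322 and 10 other genes, of which 6 were detected. Of their summed reads Mir322 held 70.0% in replicate 1 (69.8 to 70.2, Wilson), against 92.5% in replicate 2 (92.3 to 92.6). All 6 other detected genes were higher in replicate 1, opposite to Mir322, against 35.3% of all genes. Mir15a and Mir16-1 both lie on chromosome 14, Mir15b and Mir16-2 on chromosome 3, and Mir195a and Mir497 on chromosome 11. The 6 genes are therefore not taken as separate observations. Mir15a, on chromosome 14, had 24867 reads (5013 CPM) in replicate 1 and 3999 reads (887 CPM) in replicate 2, a log2 ratio of 2.45. Mir195a, on chromosome 11, had 17105 reads (3448 CPM) in replicate 1 and 1422 reads (316 CPM) in replicate 2, a log2 ratio of 3.40.

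The differences of Mir322 and of the other genes were in opposite directions, and the counted sums were close. The 11 genes with the seed summed to 42469 CPM in replicate 1, against 39942 CPM in replicate 2. Without Mir322 the sum was 12738 CPM in replicate 1 and 3007 CPM in replicate 2, a 4.24-fold difference. Mir16-1 and Mir16-2 carry the same miR-16-5p, and reads that match both are missing from these sums. With Mir16-1 and Mir16-2 left out, Mir322 held 73.4% in replicate 1 and 94.8% in replicate 2. Mir503, with its seed identical at positions 2 to 7, was higher in replicate 1 like these genes, at 972 CPM in replicate 1 and 605 CPM in replicate 2. Mir195b, Mir6342, Mir6353 and Mir6419, which also carry the seed, had 0 reads in both libraries.

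Among reads counted for genes with the miR-125 seed, most were of Mir125a and Mir351. Mir125a, which lies on chromosome 17, had 56727 reads (11436 CPM) in replicate 1 and 23091 reads (5124 CPM) in replicate 2, while Mir351 had 5236 CPM and 5762 CPM. Of all reads of genes with this seed Mir351 held 30.1% in replicate 1 (29.8 to 30.4, Wilson), against 49.2% in replicate 2 (48.8 to 49.7). Mir125b-1 and Mir125b-2 carry an identical miR-125b-5p, and reads of it that match both were counted for neither, so the part of miR-125b in this seed was not measured. Without them the share of Mir351 was 31.4% in replicate 1 and 52.9% in replicate 2.

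**Figure D3:**
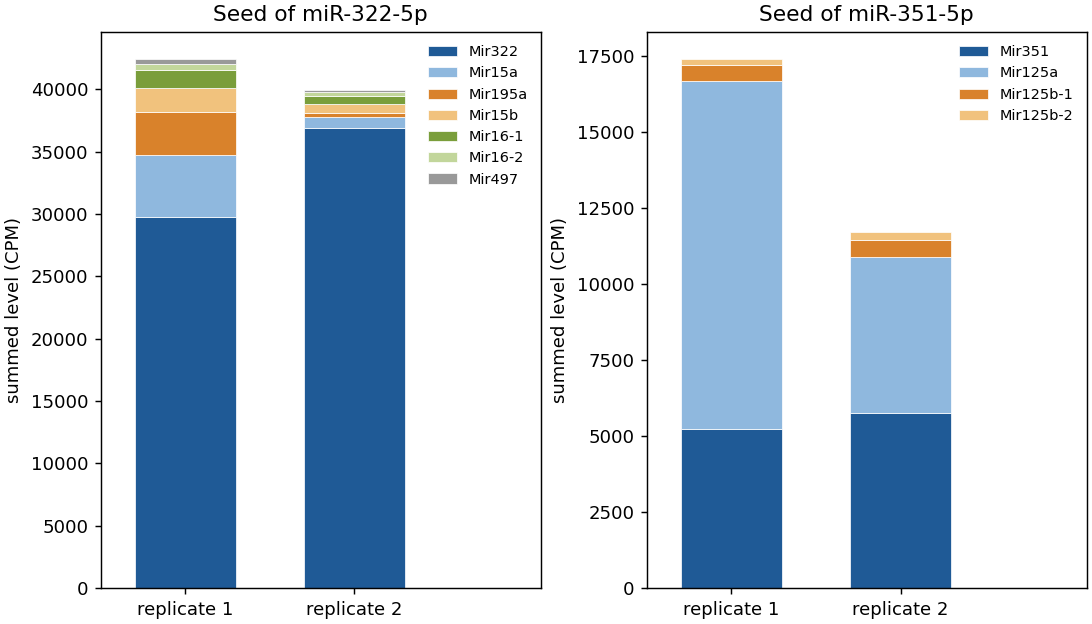
Summed level in CPM of the detected genes whose mature miRNA has the seed of miR-322-5p (left) or of miR-351-5p (right), stacked by gene for each library. The Mir322 block reaches 29731 CPM of 42469 CPM in replicate 1 and 36935 CPM of 39942 CPM in replicate 2. The Mir351 block is similar in both libraries, while the Mir125a block above it is larger in replicate 1.

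Among X-linked miRNA genes the cluster held the larger part of the reads. The X chromosome carries 142 of the genes of the tables, of which 38 were detected. Of X-linked miRNA reads the 5 members took 57.3% in replicate 1 (57.1 to 57.5, Wilson), against 59.8% in replicate 2 (59.6 to 60.0). Mir322 at 33333 CPM ± 5094 was followed by Mir652, a miRNA outside the locus, at 8195 CPM ± 461 (SD, n = 2 for both).

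The locus was also set beside other runs of miRNA genes with gaps of at most 10000 bases on 1 strand. There were 17 such clusters with at least 3 detected genes, the Mir322 to Mir450b locus among them with all 7 hairpins. By mean share of reads it ranked 3, after the Mir379 to Mir3072 cluster and the Mir23b to Mir24-1 cluster. The order of the locus and the Mir23b to Mir24-1 cluster was not the same in both libraries. The locus had 3.73% against 3.72% in replicate 1, and 4.45% against 4.71% in replicate 2. The Mir770 to Mir136 cluster was close to the locus in replicate 2, at 4.42%. The genes of the Mir322 to Mir450b locus spread over 1.04 in log2 ratio between the libraries. Over the 17 clusters the median was 1.26 and the range 0.54 to 2.53. Genes called in both directions were found in 8 of the 17 clusters, so divergent members are not particular to this locus. Mir322 held 81.5% of the summed mean CPM of the locus, and the leading gene of a cluster held a median of 52.1%. In 3 clusters, each of 3 detected genes, the leading gene held more. At least 2 of the 3 genes of those clusters share a run of 18 bases with another hairpin, as do 3 of the 7 here, and counts of such genes are uncertain. No test was made of these differences between clusters.

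**Figure D4:**
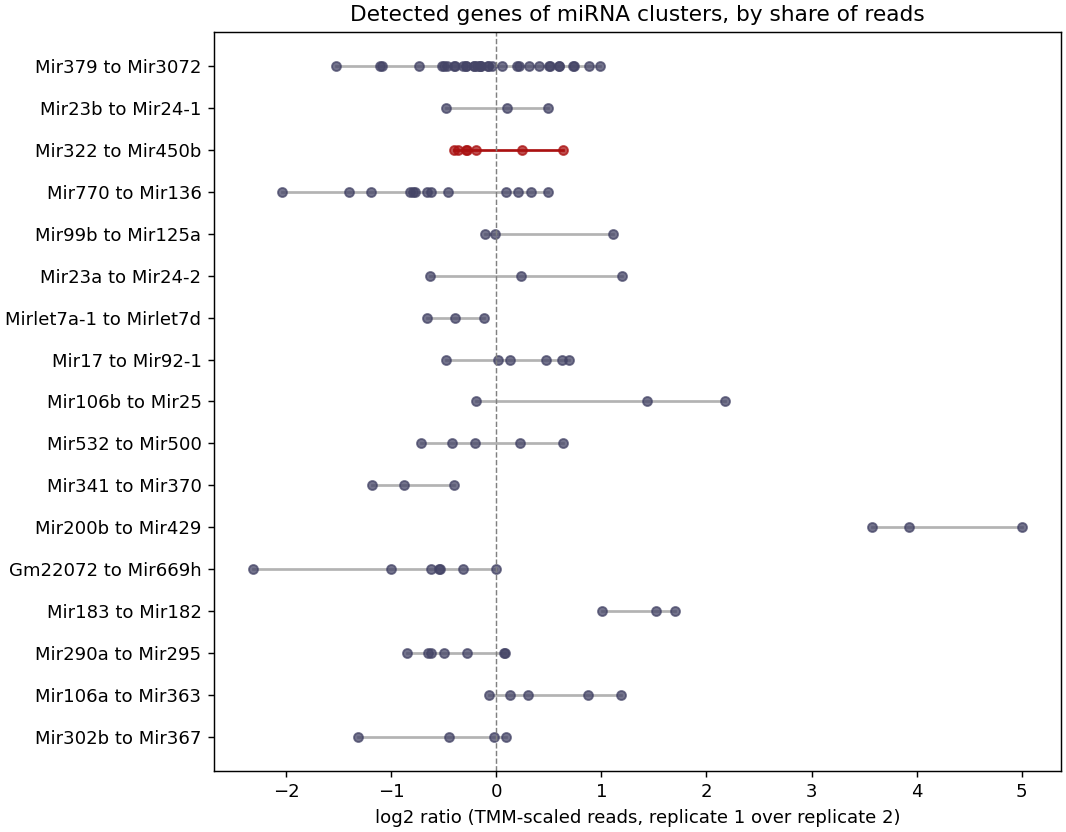
Log2 ratio of TMM-scaled reads, replicate 1 over replicate 2, for every detected gene of 17 miRNA clusters, ordered from the largest mean share of reads at the top. Each point is a gene and each line spans a cluster. The Mir322 to Mir450b locus (red) spans -0.40 to 0.63.

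The detected genes nearest to a member in level over both libraries, by distance in log2(CPM + 1), came from other loci. For Mir322 the nearest was Mir143, with 25848 CPM in replicate 1, against 35132 CPM in replicate 2. Next came Mir23b, with 32842 CPM in replicate 1, against 44151 CPM in replicate 2. For Mir503 they were Mir130b and Mir425, for Mir351 Mir151 and Mir376a, for Mir542 Mir328 and Mir181d, and for Mir450b Mir5099 and Mir193a. With 2 libraries, nearness in level is nearly all that this measure can show.

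The libraries differed in markers of several cell types, and these differences lie beside those of the members. Of all 377 genes tested, 35.3% were called higher in replicate 1 and 31.8% in replicate 2. The counts of called genes per list stand against these shares. Of the 7 epithelial miRNA genes, 6 were higher in replicate 1, and the list took 0.471% of the reads in replicate 1 and 0.116% in replicate 2. Mir203 was higher in replicate 2, with 4356 of the list's 5248 reads there, against 2210 of 23358 in replicate 1. Mir200a, Mir200b and Mir429 form 1 cluster on chromosome 4, and Mir200c and Mir141 both lie on chromosome 6. The 6 genes are therefore not taken as separate observations. The 5 endothelial genes took 17.1% in replicate 1 and 7.51% in replicate 2, most of it from Mir126a, with 2 of the 4 detected genes higher in each library. The striated muscle list went the other way, with 0.125% in replicate 1 and 0.869% in replicate 2, and its 3 detected genes of 10 were all higher in replicate 2. Nearly all reads of this list were of Mir206, with 6146 of 6221 in replicate 1 and 38876 of 39153 in replicate 2. Of that list Mir133a-1, Mir133a-2 and Mir208a had 0 reads in replicate 1 and at most 3 in replicate 2. Mir133a-1 and Mir133a-2 each share a run of 18 bases with 2 other hairpins. Reads that match several places enter no count, so the counts of Mir133a-1 and Mir133a-2 do not show that their miRNA is absent. Of the 5 mesenchymal and smooth muscle genes 4 were detected, 2 of them higher in each library, with 3.02% of the reads in replicate 1 and 3.75% in replicate 2. The 3 erythroid genes took 0.106% in replicate 1 and 0.0287% in replicate 2, with 2 higher in replicate 1 and 1 in replicate 2. The 5 kidney genes took 0.0419% in replicate 1 and 0.0180% in replicate 2, with 3 of the 4 detected higher in replicate 1. The 4 leukocyte genes took 0.126% in replicate 1 and 0.155% in replicate 2, with 1 higher in replicate 1 and 3 in replicate 2. The 7 genes known from steroid-producing cells took 3.19% in replicate 1 and 2.63% in replicate 2, with 2 higher in each library and 3 without a call. Most of this difference in share came from Mir125a, at 11436 CPM in replicate 1 and 5124 CPM in replicate 2. Mir21a, the most abundant of the list, stood at 18470 CPM in replicate 1 and 19306 CPM in replicate 2. Mir24-1 (no call) and Mir24-2 (higher in replicate 1) each share a run of 18 bases with 2 other hairpins, so their counts are uncertain. The part of these differences in those of Mir322, Mir503 and the other members was not tested. Genes that define steroid-producing or chromaffin cells are not measured in miRNA libraries. The 4 neuroendocrine miRNA genes took 4.02% in replicate 1 and 4.56% in replicate 2. Mir375 and Mir7b were higher in replicate 2, and Mir7-1 and Mir7-2 in replicate 1. Mir375, the most abundant of them, stood at 36380 CPM in replicate 1, against 41025 CPM in replicate 2. Mir7-1 and Mir7-2 each share a run of 18 bases with 1 other hairpin, so their counts are uncertain.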

How the data were processed

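The authors deposited whole-number read counts per miRNA gene for each library, not normalized. The mm10 assembly is named in the labels, and text deposited with each library adds GENCODE M21 as annotation. An aligner or counting tool is not given in the sources used here. Of the 3 count columns, the values show that the second holds reads on the annotated strand, and it was used. Reads assigned to miRNA genes were 42.4% of 11704395 reads in replicate 1 and 39.9% of 11288855 in replicate 2. In replicates 1 and 2, unmapped reads (25.8% and 26.1%), reads at several places (25.9% and 27.8%) and reads outside miRNA genes (5.96% and 6.24%) stayed out of totals and tests. A base at which the CAST/EiJ allele differs from the reference can lower a count.

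CPM was computed over reads assigned to miRNA genes. TMM factors (edgeR 4.0.16) came from the detected genes and were 1.02 for replicate 1 and 0.982 for replicate 2. Counts were simulated for the comparison of these libraries, with 381 genes tested. In them 3 of 193 unchanged genes were called with factors over detected genes and 41 of 193 with factors over all genes. Factors over all genes were therefore kept as an alternative. The simulated counts held counting error only, unlike the libraries, so they do not show which factors suit the libraries. Intervals of shares and of ratios between members came from scipy 1.17.1, and those of log2 ratios, with the binomial test, from R 4.3.3. Runs of 18 bases were searched between hairpins of GENCODE M21. Mature sequences were matched by symbol to RefSeq. Named genes were all members, Mir450-1 and Mir450-2, genes with the miR-15/16 or miR-125 seed, the 2 genes nearest in level to each member, and clusters with at least 3 detected genes. Mir652, Mir126a, Mir206, Mir21a, Mir375, Mir203, Mir141, Mir429, the Mir7, Mir24 and Mir200 genes and the muscle genes at 0 reads were named beside these. The members, the lists and the tests were chosen with earlier results of these data known.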

Additional observations from a re-analysis of the deposited data

How the results depend on the processing

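The direction of all 5 members and of their sum was the same under every alternative run for it (scaling by total reads, DESeq2 1.42.0 size factors, TMM factors over all genes, reads on either strand, no read minimum, a mean of at least 100 reads, and hairpins without shared runs, which leaves out Mir450b). Each member also stayed on its side of the threshold under these. The setting without a read minimum and the one with TMM factors over all genes had identical factors and gave identical ratios. A change of scaling shifts the log2 ratios of all members by the same amount, so it is not a separate check of each. The log2 ratio ranged from 0.55 to 0.68 for Mir503 and from -0.44 to -0.31 for Mir322. TMM factors over all genes were chosen as an alternative after seeing the data. With edgeR's exact test the members called were 0 higher in replicate 1 and 0 higher in replicate 2, and of all genes 7 were called, 7 higher in replicate 1 and 0 in replicate 2, where 25 had an unadjusted p under 0.05. Since its noise is estimated from the difference between the same libraries, a call lost under it is no sign of a weaker difference.

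The mean share of the cluster was 4.84% with reads on either strand, where 1018277 and 497237 reads of replicates 1 and 2 became ambiguous and left the total. It was 6.02% with hairpins without shared runs, whose total is smaller, and 3.55% of all uniquely mapped reads. Leaving out 1 library gave 3.72% to 4.44% for the cluster and 79.9% to 83.1% for Mir322 within it. Tests between the libraries need both, so no test without a replicate was run. No paired analysis was possible because the series has 1 group. With 2 libraries, no statement rests on more than their 1 difference.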

Other observations

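Reads on the strand opposite to the hairpins were at or near 0. Mir322 had 3 such reads in replicate 1 and 3 in replicate 2, beside 147484 and 166447 on its own strand, and the other 4 members had 0 in both libraries. A count of 0 allows up to 3 reads.

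The hairpins of the members differ in base composition. Mir450b has a GC content of 30.5%, and the other 4 lie between 50.5% (Mir351) and 54.9% (Mir503). The lowest folding energy computed with RNAfold 2.7.2 ran from -42.9 kcal per mol for Mir322 to -31.8 kcal per mol for Mir450b. No relation of these features to level was tested over 5 genes.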
